A study of Homo sapiens with 6 samples.

Results

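The genes described here are 10 genes of the AP-1 and immediate-early response: the Fos-family subunits FOS, FOSB, FOSL1 and FOSL2, the Jun-family subunits JUN, JUNB and JUND, the transcription factor EGR1, the immediate-early gene IER2 and the phosphatase gene DUSP1. They were taken by gene symbol from the table of 60691 genes, and all 10 had enough counts to be tested among the 16591 genes that were. mRNA was sequenced from SW1353 cells, an established human chondrosarcoma line, in 3 libraries transduced with a lentiviral hairpin labelled shSIRT1 and 3 libraries transduced with a lentiviral control hairpin against firefly luciferase, labelled shfirefly. All 6 cultures shared the line and a low-oxygen culture (3% O2) that lasted 48 h from seeding, and the design asked how SIRT1 bears on transcription driven by HIF-2α. SIRT1 is the hairpin's target in the sample titles, the treatment labels and the design text, whereas the treatment protocol names EPAS1, the gene of HIF-2α.

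AP-1 is a dimer of basic leucine zipper proteins: Jun proteins pair with each other or with Fos proteins, whereas Fos proteins need a Jun partner. FOS, FOSB, EGR1, IER2 and DUSP1 are classical immediate-early genes, silent or low at rest and switched on within minutes by growth factors or stress through MAP kinases, SRF and CREB, and their short-lived mRNAs then decay. FOSL1 and FOSL2 accumulate later and stay high in many proliferating mesenchymal and tumour cells, and DUSP1 encodes a nuclear phosphatase that switches MAP kinases off.

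The promoters of these genes are shown first because some of the sites on which they are known to be induced can be read in them. Sites outside the windows described here were not searched. Windows of 250 bases upstream of the transcript start (RefSeq, GRCh38.p14) were available for 9 of the 10 genes, FOSL1 being the gene not matched. They were searched on both strands. The gene coordinates given further below come from GENCODE, and its gene starts differ from the RefSeq starts for some genes. By the GENCODE coordinates the JUN and FOSL2 windows lay wholly inside the genes. Part of the FOS window and the last base of the FOSB window did so too. The JUN and FOSL2 matches are thus upstream of the RefSeq start only. The core TGACG of the CREB site was present in 9 of 9, against 21.2% of all 35116 promoter windows of this length and 26.9% of the 16216 that belong to tested genes. The 9 windows held between 62% and 74.8% G and C. Neither these shares nor those given for the other motifs are matched for GC content. For each gene the core nearest the start is printed 5′ to 3′ with 10 bases on either side, on the strand that reads TGACG, with the core in capitals.
FOS (chr14:75278754-75278778, plus strand): gttgagcccgTGACGtttacactca
FOSB (chr19:45467926-45467950, plus strand): aaggggcgggTGACGtaagcagggg
FOSL2 (chr2:28392782-28392806, plus strand): agtctggggtTGACGtgagtgaatc
JUN (chr1:58784156-58784180, minus strand): gtctccatggTGACGggcgggcccg
JUNB (chr19:12791339-12791363, plus strand): ttcctgacagTGACGcgagccgcct
JUND (chr19:18281694-18281718, plus strand): tgggtgcgggTGACGtcgctcattt
EGR1 (chr5:138465403-138465427, minus strand): gcctccgtcgTGACGtacatggcca
IER2 (chr19:13150261-13150285, minus strand): gatggtggcgTGACGggggcggggg
DUSP1 (chr5:172771292-172771316, plus strand): ggtgatcacgTGACGgggcggtgac

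The full palindrome TGACGTCA, which holds the core on each strand, was found in 2 of the 9 windows, those of JUND and DUSP1, against 2.39% of the windows of tested genes. The JUN window held the variant AP-1 element TGACATCA, through which JUN is known to regulate itself, as did 1.49% of the windows of tested genes. It is shown here in capitals.
JUN (chr1:58784097-58784124, minus strand): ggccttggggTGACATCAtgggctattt
The EGR1 window held both CArG boxes (the binding site of SRF) found in the 9 windows, against 1.07% of windows of tested genes with at least 1. A CArG box farther upstream of any of the 9 genes would not be seen. The pattern TGANTCA (N for any base), which includes the canonical AP-1 element and is wider than it, was in 0 of 9 windows and 4.83% of those of tested genes. The EGR site GCGTGGGCG was in 0 of 9 and 1.12%. The letters ACGTG, a form of the core bound by HIF proteins and by other basic helix-loop-helix factors, were in 4 windows (FOSL2, EGR1, IER2 and DUSP1). They were in 21.8% of the windows of tested genes. In FOSL2, EGR1 and DUSP1 the letters overlapped a CREB core. Other forms of the HIF core, such as GCGTG, were not searched, so a window without ACGTG may still hold one. The whole windows of the 3 genes with a palindrome or CArG boxes follow, in the direction of transcription, with every match in capitals.
JUND (chr19:18281623-18281872, minus strand): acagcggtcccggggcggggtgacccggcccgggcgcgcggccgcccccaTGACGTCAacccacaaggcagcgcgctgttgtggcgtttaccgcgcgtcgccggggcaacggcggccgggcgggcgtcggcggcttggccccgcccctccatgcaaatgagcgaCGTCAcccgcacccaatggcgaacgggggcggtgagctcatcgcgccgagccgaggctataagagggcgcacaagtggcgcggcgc
EGR1 (chr5:138465229-138465478, plus strand): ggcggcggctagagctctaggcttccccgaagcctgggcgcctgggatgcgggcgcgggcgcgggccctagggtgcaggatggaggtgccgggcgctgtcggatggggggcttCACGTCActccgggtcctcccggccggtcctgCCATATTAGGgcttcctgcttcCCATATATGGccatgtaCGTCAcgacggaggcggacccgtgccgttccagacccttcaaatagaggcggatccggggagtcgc
DUSP1 (chr5:172771196-172771445, minus strand): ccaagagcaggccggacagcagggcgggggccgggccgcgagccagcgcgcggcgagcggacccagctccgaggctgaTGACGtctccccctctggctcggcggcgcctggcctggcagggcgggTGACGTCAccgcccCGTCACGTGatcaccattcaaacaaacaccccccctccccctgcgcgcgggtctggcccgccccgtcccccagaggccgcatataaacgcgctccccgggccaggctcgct

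**Figure D1:**
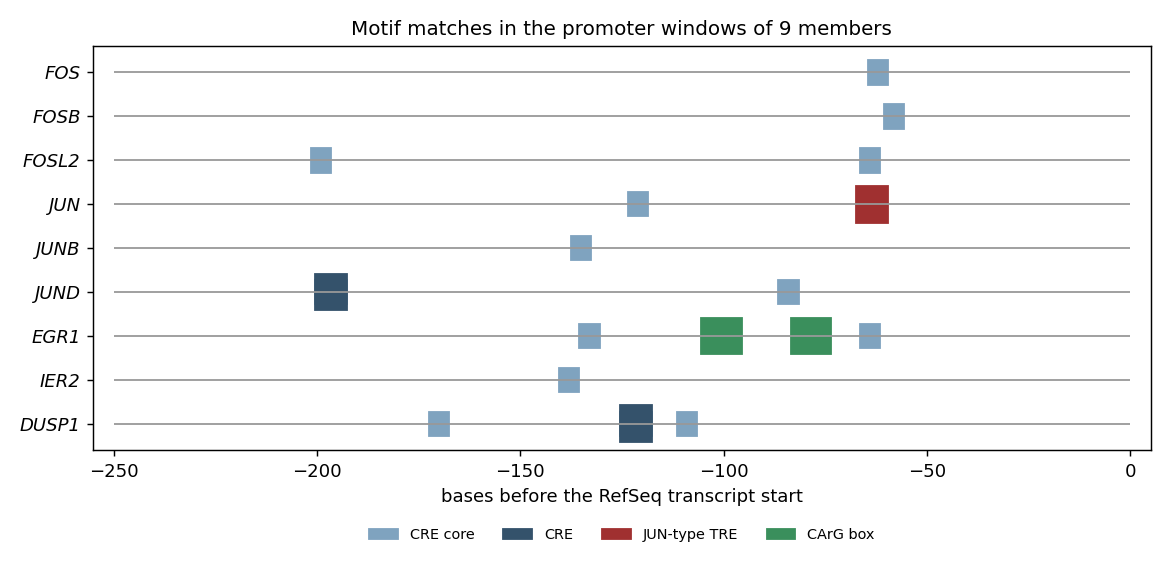
Positions of the motif matches in the 250 bases before the RefSeq transcript start of 9 genes, 1 line a gene, with the distance from the start in bases on the x axis. CREB cores (CRE core in the legend) are present on every line, the palindrome on those of JUND and DUSP1, the variant AP-1 element on that of JUN and the CArG boxes on that of EGR1; a match is a description of the letters only.

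Total counts ranged between 24993064 and 29564361 in the shSIRT1 libraries and between 28556696 and 32044191 in the shfirefly libraries, so that 3 counts corresponded to 0.0968 to 0.115 CPM (counts relative to the library's total, scaled by TMM). SIRT1 averaged 13.6 ± 0.953 CPM in shSIRT1 cells and 24.9 ± 0.984 CPM in shfirefly cells, and EPAS1, the other gene named as a target, averaged 233 ± 10.5 CPM in shSIRT1 cells and 456 ± 40.8 CPM in shfirefly cells (SD, n = 3 each), so both were lower. Of the labelled tissue's markers, SOX9, the cartilage master regulator, was present at 53.1 ± 1.17 CPM in shSIRT1 cells and 43.7 ± 2.54 CPM in shfirefly cells (log2 fold change 0.28 ± 0.05). ACAN, the gene of the cartilage proteoglycan aggrecan, was low and lower in knockdown cells, at 0.679 ± 0.194 CPM in shSIRT1 cells and 1.51 ± 0.270 CPM in shfirefly cells (-1.16 ± 0.29, adjusted p = 0.0018, edgeR's quasi-likelihood test). Another 7 of the 10 cartilage markers were too low to test, COL2A1 with 30 counts in all 3 shSIRT1 libraries and 3 in all 3 shfirefly libraries, and COL9A1 at 0. Markers of other cell types were low: the epithelial genes summed to 0.458 to 1.34 CPM in shSIRT1 and 0.444 to 1.01 CPM in shfirefly libraries, the endothelial genes to 1.87 to 2.51 CPM in shSIRT1 and 2.85 to 3.97 CPM in shfirefly libraries, and the leukocyte genes to 0.359 to 0.717 CPM in shSIRT1 and 0.516 to 0.814 CPM in shfirefly libraries. Of these, TEK alone was called (-0.75, adjusted p = 0.024, edgeR), a call lost with DESeq2 (adjusted p = 0.081), without shSIRT1 replicate 3 (adjusted p = 0.13) and without shfirefly replicate 2 (adjusted p = 0.052). Some fibroblast collagen and receptor genes, which mesenchymal tumour lines also express, were abundant. The 7 fibroblast genes summed to 4487 to 4701 CPM in shSIRT1 cells and 5959 to 6331 CPM in shfirefly cells. COL1A1 made up most of this sum, at 3587 CPM in shSIRT1 cells and 4738 CPM in shfirefly cells. COL1A1 (-0.40), COL1A2 (-0.53) and PDGFRB (-0.51) were lower. COL3A1 was low (1.38 CPM in shSIRT1 and 1.46 CPM in shfirefly cells), as were DCN (0.0127 and 0.0755 CPM) and LUM (0 and 0.0247 CPM).

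Knockdown cells had less mRNA of most AP-1 subunits and of DUSP1. At a Benjamini-Hochberg adjusted p under 0.05 in edgeR's quasi-likelihood test over all tested genes, 7 of the 10 genes were lower (FOS, FOSL1, FOSL2, JUN, JUNB, JUND and DUSP1), 0 were higher, and FOSB, EGR1 and IER2 did not pass. The contrast was broad, since 52.8% of all tested genes were called, 26.0% lower and 26.8% higher. In the same 7 genes every shSIRT1 library lay below every shfirefly library. Of all tested genes 59.7% had groups that did not overlap, 29.4% with the shSIRT1 libraries lower and 30.4% with them higher. The median log2 fold change of the 10 was -0.43, against 0.00 over all tested genes. These are RNA levels of whole cultures, in which fewer cells expressing a gene and less RNA per cell cannot be told apart.

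The levels of the 10 genes were far apart. Per kilobase of merged exon, FOSL1 stood highest in both groups, at 126 ± 5.84 CPM per kilobase in shSIRT1 cells and 137 ± 3.54 in shfirefly cells. In shSIRT1 cells JUN (73.0 ± 2.19), FOSL2 (56.8 ± 2.35) and DUSP1 (52.9 ± 1.23 CPM per kilobase) followed in that order with no overlap between neighbours. In shfirefly cells the order was JUN (101 ± 4.96), DUSP1 (94.3 ± 3.89) and FOSL2 (77.1 ± 3.73 CPM per kilobase), and the ranges of JUN and DUSP1 overlapped. JUND, JUNB and IER2 came next, at 27.6, 9.09 and 6.93 CPM per kilobase in shSIRT1 cells and 37.0, 14.8 and 7.62 in shfirefly cells. EGR1, FOS and FOSB all lay below 0.6 CPM per kilobase in every library. Among these 3 the ranges of EGR1 and FOS overlapped in shSIRT1 cells, and in shfirefly cells no neighbours overlapped.

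**Figure D2:**
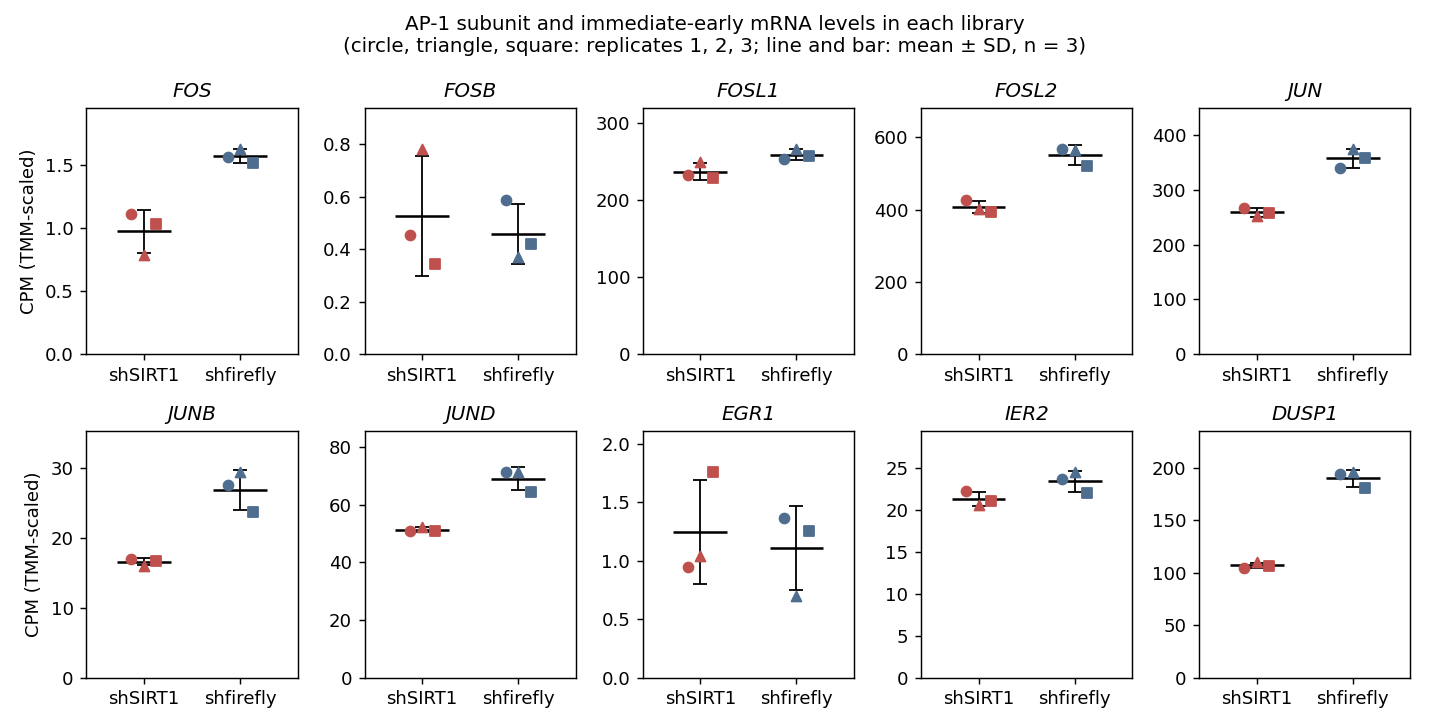
CPM (y axis, linear from 0, a scale for each gene) of the 10 genes in the 3 shSIRT1 and 3 shfirefly libraries; symbols mark the replicate, and the line and bar the mean ± SD. The groups are apart in the panels of FOS, FOSL1, FOSL2, JUN, JUNB, JUND and DUSP1 and overlap in those of FOSB, EGR1 and IER2.

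Among the Fos-family subunits, FOSL2 (Fra-2; ENSG00000075426.12, chr2:28392448-28417312, plus strand, 7 merged exons) changed most clearly. It had 426, 402 and 393 CPM in the shSIRT1 libraries, against 569, 566 and 521 CPM in the shfirefly libraries. Each shSIRT1 library lay below each shfirefly library. On the log2 scale the fold change was -0.44 ± 0.04 (SE), 1.36-fold lower, with an adjusted p of 1.1e-08 in edgeR's quasi-likelihood test.

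FOSL1 (Fra-1; ENSG00000175592.9, chr11:65892049-65900573, minus strand, 4 merged exons), a Fos subunit without a strong activation domain of its own, moved little. It had 233, 250 and 229 CPM in the shSIRT1 libraries, against 254, 267 and 257 CPM in the shfirefly libraries. The groups did not overlap, but the gap between the highest shSIRT1 and the lowest shfirefly library was smaller than the range within either group. FOSL1 was 1.09-fold lower, a log2 fold change of -0.13 ± 0.04, with an adjusted p of 0.010 in edgeR's quasi-likelihood test. Its direction depended on the scaling: with an offset for GC content and length it was 0.03 (adjusted p = 0.61), with library totals alone -0.01 (adjusted p = 0.91), and without shSIRT1 replicate 3 it was -0.10 (adjusted p = 0.074).

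FOS (c-Fos; ENSG00000170345.10, chr14:75278774-75282230, plus strand, 3 merged exons), the classical partner of c-Jun, was barely expressed. It had 1.11, 0.783 and 1.03 CPM in the shSIRT1 libraries, against 1.56, 1.63 and 1.52 CPM in the shfirefly libraries, from 34, 24 and 27 counts and 48, 44 and 47 counts. All 3 shSIRT1 values lay below all 3 shfirefly values. The spread between FOS replicates was 17.5% of the mean in shSIRT1 cells, where counting error gives 18.8%. In shfirefly cells it was 3.56%, narrower than the 14.7% that counting error gives. The log2 fold change was -0.69 ± 0.25, with an adjusted p of 0.023 in edgeR's quasi-likelihood test. Pooled over the libraries, the ratio of FOS counts per scaled library size was 0.620 (exact 95% interval 0.468 to 0.818, for counting error only). The authors' deposited table gives an adjusted p of 0.099 for FOS, and the call was also lost without shSIRT1 replicate 2 (log2 fold change -0.55, adjusted p = 0.096), without shfirefly replicate 2 (-0.66, adjusted p = 0.058) and with library totals alone (-0.57, adjusted p = 0.054).

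FOSB (ENSG00000125740.14, chr19:45467995-45475179, plus strand, 3 merged exons), which encodes a further activating Fos protein, was the lowest of the 10. It had 0.456, 0.783 and 0.344 CPM in the shSIRT1 libraries, against 0.586, 0.370 and 0.419 CPM in the shfirefly libraries. The groups overlapped, and the highest value of all came from shSIRT1 replicate 2. With 47 counts in the shSIRT1 libraries and 41 in the shfirefly libraries the ratio was 1.16 (exact 95% interval 0.748 to 1.81, for counting error only). That interval holds ratios on both sides of 1, so the sign of any change was not resolved. The spread between replicates was 43.2% of the mean in shSIRT1 cells, where counting error gives 25.3%. In shfirefly cells it was 24.7%, where counting error gives 27.1%. The log2 fold change was 0.21 ± 0.40 (adjusted p = 0.69, edgeR's quasi-likelihood test), and without shSIRT1 replicate 2 it was -0.19. ERCC1, a DNA repair gene annotated over FOSB on the other strand, averaged 76.3 CPM in shSIRT1 cells and 90.3 CPM in shfirefly cells; the strand setting of the counting is not given in the sources used here.

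JUN, JUNB and JUND were all lower in knockdown cells. JUN (c-Jun; ENSG00000177606.7, chr1:58780788-58784327, minus strand, a gene without introns) had 267, 252 and 257 CPM in the shSIRT1 libraries, against 340, 375 and 358 CPM in the shfirefly libraries. No shSIRT1 library came near the shfirefly range. JUN was 1.38-fold lower, a log2 fold change of -0.47 ± 0.04 (adjusted p = 2.8e-09, edgeR's quasi-likelihood test).

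JUNB (ENSG00000171223.6, chr19:12791496-12793315, plus strand, without introns), which encodes a weaker activator than c-Jun that can also restrain it, had the largest fall of the Jun family. It had 17.0, 16.0 and 16.7 CPM in the shSIRT1 libraries, against 27.5, 29.4 and 23.7 CPM in the shfirefly libraries. The shSIRT1 values were tight and the shfirefly values spread more, with replicate 3 the lowest of them. JUNB was 1.62-fold lower, a log2 fold change of -0.70 ± 0.08 (adjusted p = 1.4e-07, edgeR's quasi-likelihood test). HOOK2, annotated over JUNB on the other strand, averaged 11.3 CPM in shSIRT1 cells and 15.9 CPM in shfirefly cells. Noncoding RNAs are also annotated over FOSL2, IER2 and DUSP1, and how the counting shared reads with such neighbours is not known.

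JUND (ENSG00000130522.6, chr19:18279760-18281622, minus strand, without introns), the Jun subunit expressed most constantly across cell states, had 50.7, 52.4 and 51.0 CPM in the shSIRT1 libraries, against 71.2, 71.3 and 64.5 CPM in the shfirefly libraries. Again every shSIRT1 library was below every shfirefly library. JUND was 1.34-fold lower, a log2 fold change of -0.43 ± 0.05 (adjusted p = 2.9e-07, edgeR's quasi-likelihood test). JUND has the most GC-rich transcript of the 10, at 69.7% G and C, and with an offset for GC content and length its log2 fold change was -0.21, still past the threshold.

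**Figure D3:**
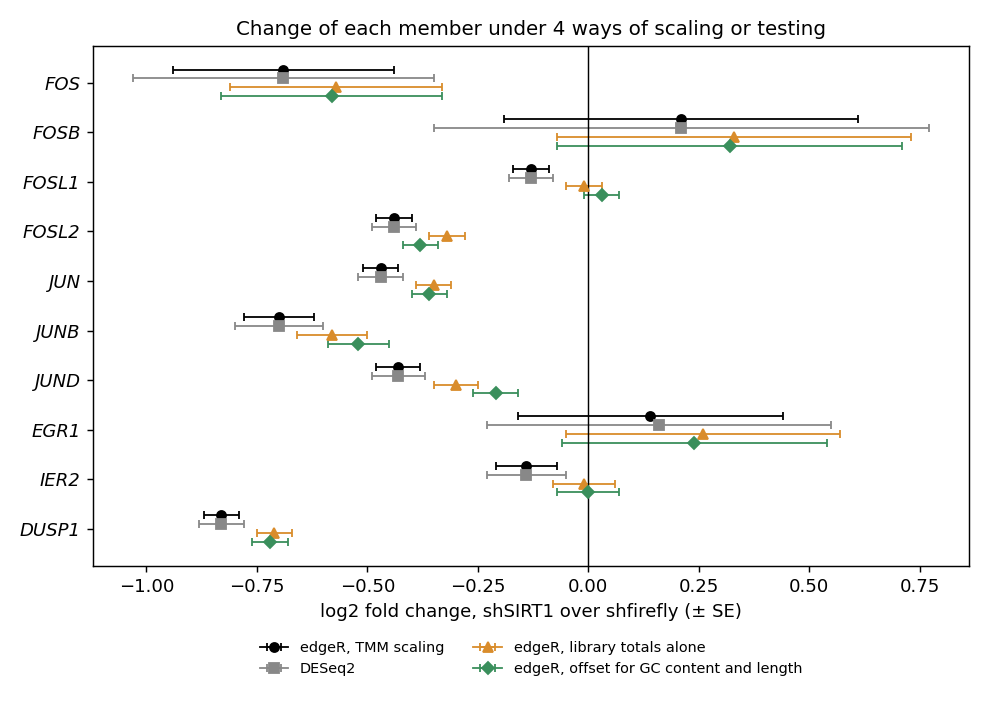
Log2 fold change (shSIRT1 over shfirefly, x axis) of the 10 genes in 4 analyses: edgeR with TMM scaling, DESeq2, edgeR with library totals alone and edgeR with an offset for GC content and length. Bars are ± SE; DUSP1, JUNB and FOS lie farthest below 0, FOSL1 and IER2 lie close to it and on it or across it with the last 2 scalings, and the bars of FOSB and EGR1, the genes with few counts, are the widest along with that of FOS.

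The balance of subunits was described by the share of each gene in the summed CPM per kilobase of its family, without a test. FOSL1 made up 68.7 ± 1.35% of the Fos family in shSIRT1 cells (67.4 to 70.1% over the libraries) and 63.9 ± 1.15% in shfirefly cells (62.7 to 65.0%). FOSL2 made up 31.1 ± 1.35% in shSIRT1 cells and 35.9 ± 1.10% in shfirefly cells. The ranges of FOSL1 shares did not overlap, FOSL2 having the larger fold change of the pair. FOS and FOSB together were under 0.3% of the family in either group.

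Within the Jun family the shares were closer. JUN made up 66.6 ± 0.755% in shSIRT1 cells and 66.1 ± 1.85% in shfirefly cells, and JUND 25.1 ± 0.850% in shSIRT1 cells and 24.2 ± 1.21% in shfirefly cells, with differences smaller than the SD within the groups for JUN and within the shfirefly group for JUND. JUNB made up 8.29 ± 0.155% in shSIRT1 cells (8.11 to 8.40%) and 9.65 ± 0.774% in shfirefly cells (8.76 to 10.1%), which did not overlap. The summed Fos family stood to the summed Jun family as 1.64, 1.75 and 1.62 in the shSIRT1 libraries, against 1.44, 1.38 and 1.41 in the shfirefly libraries. The Fos sum was 177 to 189 CPM per kilobase in shSIRT1 cells and 209 to 221 in shfirefly cells, and the Jun sum 108 to 112 CPM per kilobase in shSIRT1 cells and 149 to 160 in shfirefly cells. Both sums were thus lower in knockdown cells, the Jun sum by the larger ratio.

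**Figure D4:**
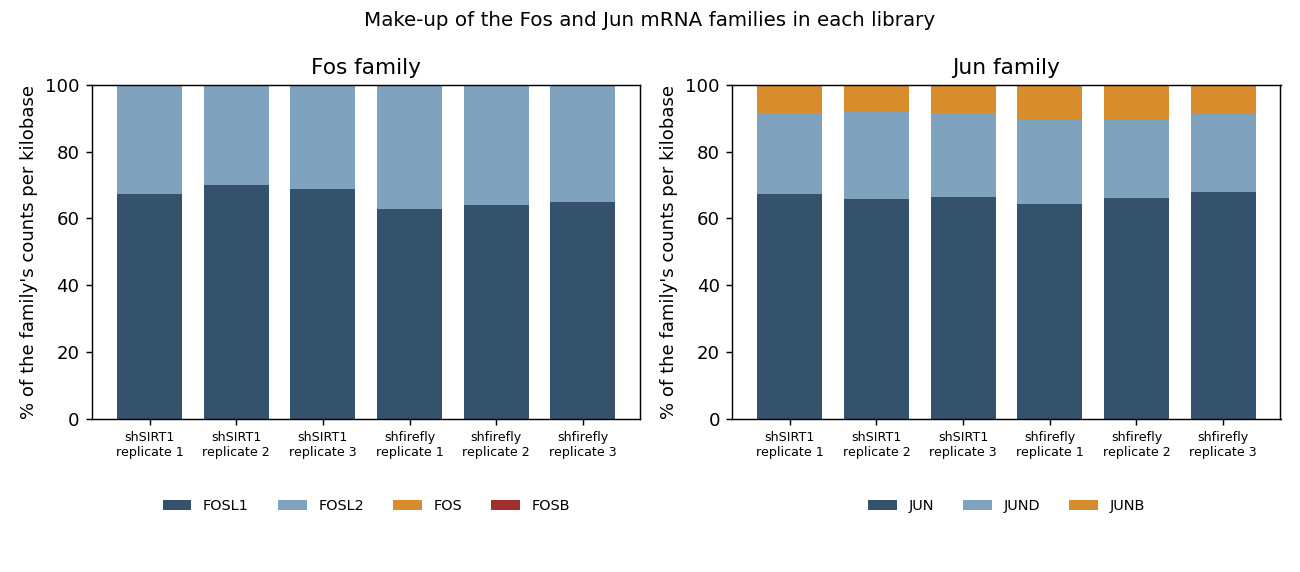
Share of each subunit (y axis, percent of the family's summed CPM per kilobase) in each of the 3 shSIRT1 and 3 shfirefly libraries, for the Fos family and the Jun family. FOSL1 takes more of the Fos family in the shSIRT1 libraries (67.4 to 70.1%) than in the shfirefly libraries (62.7 to 65.0%), the Jun family keeps a similar make-up, and FOS and FOSB are too small to be seen.

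EGR1 (ENSG00000120738.8, chr5:138465490-138469315, plus strand, 2 merged exons), a zinc-finger factor induced by serum through SRF, was low in every library. It had 0.945, 1.04 and 1.76 CPM in the shSIRT1 libraries, against 1.37, 0.703 and 1.26 CPM in the shfirefly libraries. The groups overlapped, with the highest value in an shSIRT1 library and the lowest in an shfirefly library. The ratio was 1.08 (exact 95% interval 0.818 to 1.44; 107 counts in the shSIRT1 and 100 in the shfirefly libraries), and the log2 fold change 0.14 ± 0.30 (adjusted p = 0.72, edgeR's quasi-likelihood test). Its spread between replicates, 35.5% of the mean in shSIRT1 cells and 32.1% in shfirefly cells, was wider than the 16.7% and 17.3% that counting error gives. The sign depended on single libraries: the log2 fold change was -0.17 without shSIRT1 replicate 3 and -0.09 without shfirefly replicate 2.

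IER2 (ENSG00000160888.7, chr19:13150415-13154908, plus strand, 2 merged exons), a nuclear protein of the immediate-early response, had 22.2, 20.6 and 21.1 CPM in the shSIRT1 libraries, against 23.7, 24.5 and 22.0 CPM in the shfirefly libraries. The ranges met, the highest shSIRT1 library lying just above the lowest shfirefly library. The log2 fold change was -0.14 ± 0.07 (adjusted p = 0.10, edgeR's quasi-likelihood test). It passed with upper-quartile factors (-0.19, adjusted p = 0.028) and without shfirefly replicate 3 (-0.19, adjusted p = 0.030), and was 0.00 with an offset for GC content and length.

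DUSP1 (MKP-1; ENSG00000120129.6, chr5:172768090-172771195, minus strand, 4 merged exons), whose product dephosphorylates p38, JNK and ERK and which is itself a target of those pathways, had the largest fold change of the 10. It had 105, 110 and 106 CPM in the shSIRT1 libraries, against 194, 196 and 181 CPM in the shfirefly libraries. The groups were separated by a gap several times the range within either. DUSP1 was 1.78-fold lower, a log2 fold change of -0.83 ± 0.04 (adjusted p = 4.9e-13, edgeR's quasi-likelihood test), and by size it ranked at place 979 among the falls of this broad contrast. Over the 6 libraries the genes with the most similar log2 CPM profile, each centred on its own mean, were IRS2, ETS1 and GPR146, at Euclidean distances of 0.0565, 0.0654 and 0.0727 among 10810 genes searched. Their log2 fold changes were -0.82, -0.85 and -0.88, which lie close to that of DUSP1 by the way these genes were chosen.

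The authors' deposited table, made with DESeq2, gives log2 fold changes of -0.44 for FOSL2, -0.47 for JUN, -0.70 for JUNB, -0.42 for JUND, -0.83 for DUSP1 and -0.13 for FOSL1, each with an adjusted p under 0.05. For FOSB, EGR1 and IER2 the authors' deposited table gives 0.21, 0.16 and -0.14, with adjusted p of 0.82, 0.80 and 0.24. The direction was the same for all 10 genes in both analyses.

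Other bZIP proteins, which pair with AP-1 subunits or compete with them, were mostly lower as well. Of 12 tested, 8 were lower, 1 was higher and 3 did not pass, beside 26.0% lower and 26.8% higher of all tested genes. The median log2 fold change of the 12 was -0.38. The other entry, BATF, was at 0. MAF, a large Maf factor that can bind AP-1-like elements, averaged 65.3 ± 6.98 CPM in shSIRT1 cells and 168 ± 10.5 CPM in shfirefly cells (log2 fold change -1.36 ± 0.08). ATF3, a stress-induced repressor that dimerises with Jun proteins, averaged 5.48 ± 0.293 CPM in shSIRT1 cells and 10.8 ± 0.782 CPM in shfirefly cells (-0.97 ± 0.11). CREB5, a partner of JUN, was the exception, with 11.2, 11.3 and 12.9 CPM in shSIRT1 cells, against 7.72, 6.62 and 9.52 CPM in shfirefly cells (0.56 ± 0.12, adjusted p = 0.00040, edgeR's quasi-likelihood test).

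Among 27 other immediate-early genes tested, 13 were lower, 3 were higher and 11 did not pass, with a median log2 fold change of -0.36. Over all tested genes 52.8% were called, 26.0% lower and 26.8% higher. PPP1R15A (GADD34), which directs a phosphatase to eIF2α, had 88.4, 89.8 and 88.4 CPM in the shSIRT1 libraries, against 194, 198 and 175 CPM in the shfirefly libraries. The groups were far apart (log2 fold change -1.09 ± 0.04). GADD45B, which acts on the p38 and JNK cascades, averaged 73.0 ± 2.69 CPM in shSIRT1 cells and 135 ± 11.6 CPM in shfirefly cells (-0.88 ± 0.05). KLF4, a zinc-finger factor, averaged 15.0 ± 1.68 CPM in shSIRT1 cells and 25.9 ± 2.42 CPM in shfirefly cells (-0.79 ± 0.09). The higher genes were the small GTPase RHOB (0.33 ± 0.04), the peptide hormone EDN1 (0.41 ± 0.13) and the kinase SGK1 (0.18 ± 0.07); the call of EDN1 was lost without shSIRT1 replicate 2 (adjusted p = 0.058), and that of SGK1 without either of replicates 1 and 2 of shSIRT1 or either of replicates 1 and 3 of shfirefly (adjusted p of 0.096 to 0.15). Both calls were also lost with DESeq2 (adjusted p of 0.051 for EDN1 and 0.088 for SGK1), and that of SGK1 with an offset for GC content and length (0.07, adjusted p = 0.40). The split of this list depended on the analysis, with 1 higher and 13 lower in DESeq2, 8 higher and 12 lower on library totals alone, and 7 higher and 13 lower with the GC and length offset.

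The other dual-specificity phosphatases did not move as one. Of 11 tested, 2 were higher, 4 were lower and 5 did not pass, with a median log2 fold change of -0.12, beside 52.8% of all tested genes called. The balance turned with the scaling: 3 were higher and 2 lower with an offset for GC content and length, 2 higher and 2 lower on library totals alone, and 2 higher and 6 lower with upper-quartile factors. DUSP6, the cytoplasmic ERK phosphatase, had 11.1, 11.5 and 10.4 CPM in the shSIRT1 libraries and 16.6, 14.9 and 17.1 CPM in the shfirefly libraries (-0.55 ± 0.08). DUSP3 (-0.31 ± 0.04) and DUSP14 (-0.19 ± 0.04) were also lower, the call of DUSP14 being lost on library totals alone (adjusted p = 0.17) and with the GC and length offset (adjusted p = 0.052). The other lower gene, DUSP22, which is named after its values were seen, was just past the threshold (-0.16 ± 0.07, adjusted p = 0.049, edgeR's quasi-likelihood test) and lost its call under 10 alternatives. DUSP10, which acts on p38 and JNK, averaged 40.6 ± 0.854 CPM in shSIRT1 cells and 27.5 ± 2.61 CPM in shfirefly cells (0.56 ± 0.06), and DUSP4, a nuclear phosphatase of the DUSP1 subfamily, 64.3, 61.6 and 58.4 CPM in the shSIRT1 libraries and 48.7, 52.4 and 48.9 CPM in the shfirefly libraries (0.30 ± 0.05).

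The factors that read the promoter elements shown above were divided. Of 11 SRF, ETS and CREB regulators, 3 were higher (SRF 0.33, MRTFA 0.28 and MRTFB 0.24 on the log2 scale, the factor of the CArG box and its co-activators), 2 were lower (CRTC2 -0.27 and ELK1 -0.24, a co-activator of CREB and a partner of SRF, both calls lost with the GC and length offset at adjusted p of 0.072 and 0.063) and 6 did not pass. With that offset 4 genes of the list were higher and 3 others lower, and the median of 0.05 was -0.12. On library totals alone 5 were higher and 0 lower. Of 21 MAP kinase cascade genes, 8 were higher, 7 were lower and 6 did not pass, with a median of -0.08. For both lists, the shares over all tested genes were 26.8% higher and 26.0% lower. The near-even split of the MAP kinase list depended on the scaling. On library totals alone 10 were higher and 5 lower, with a median of 0.04. With upper-quartile factors 7 were higher and 10 lower. The p38 kinases' activators MAP2K6 (0.90) and MAP2K3 (0.35) and the ribosomal S6 kinase RPS6KA1 (0.30) were the largest rises, and MAP2K5 (-0.56), MAPK13 (-0.46) and MAPK3, the gene of ERK1 (-0.37), the largest falls. Of 6 EGR co-repressors and regulators of JUN turnover, NAB2, itself a target of EGR1, was lower (-0.51), FBXW7, which marks c-Jun for degradation, and NAB1 were higher (0.29 and 0.26) and 3 did not pass.

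Genes known as AP-1 targets were mostly lower: 16 of 20 tested, with 1 higher, 3 not past and a median log2 fold change of -0.59. Of all tested genes 26.0% were lower and 26.8% higher. MMP10, a stromelysin, averaged 0.967 ± 0.101 CPM in shSIRT1 cells and 3.90 ± 0.318 CPM in shfirefly cells (-2.0 ± 0.19), and the gelatinase MMP9 0.552 ± 0.140 CPM in shSIRT1 cells and 1.52 ± 0.165 CPM in shfirefly cells (-1.46 ± 0.29). VEGFA averaged 609 ± 17.7 CPM in shSIRT1 cells and 1457 ± 57.8 CPM in shfirefly cells (-1.26 ± 0.04); it is also a classical target of HIF proteins, and EPAS1 was lower in the same cells, a link that was not tested. CCND1, the cyclin through which AP-1 is known to drive entry into the cell cycle, was higher, at 373 ± 18.8 CPM in shSIRT1 cells and 293 ± 6.15 CPM in shfirefly cells (0.35 ± 0.04, adjusted p = 1.5e-07, edgeR's quasi-likelihood test).

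**Figure D5:**
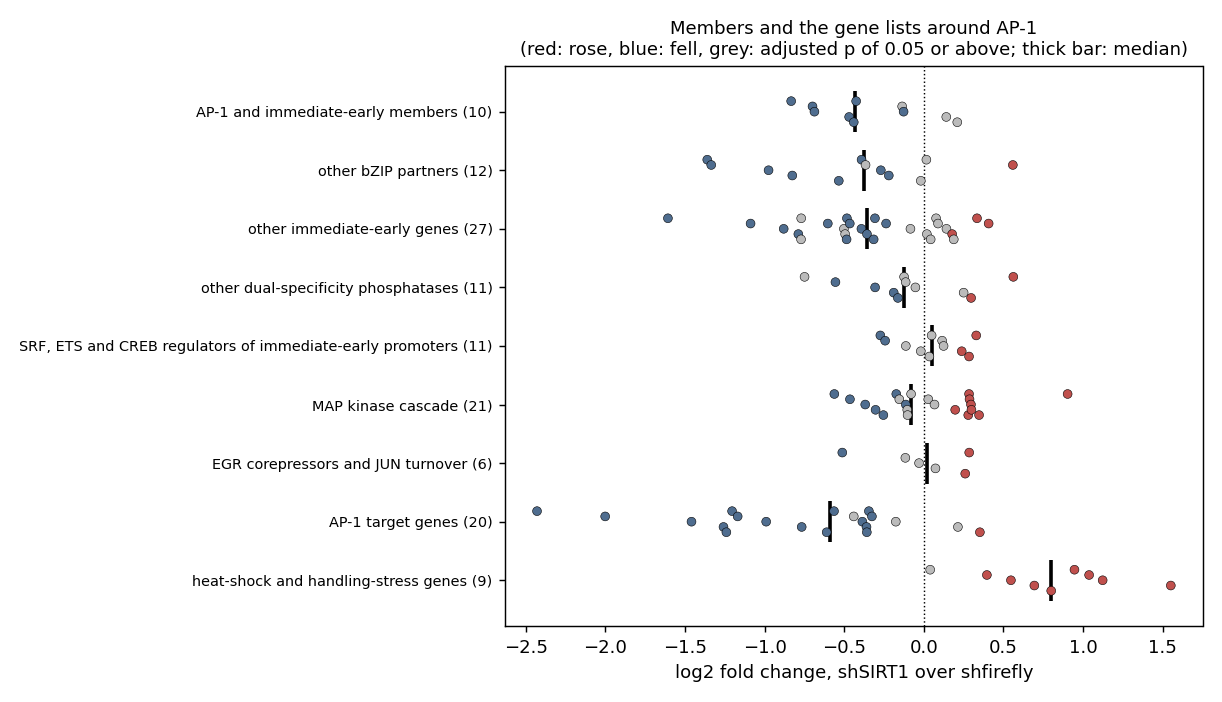
Log2 fold change (shSIRT1 over shfirefly, x axis) of each tested gene in the gene lists around AP-1, a row for each list, with the colours and median marks given in it. The AP-1 targets (median -0.59), other bZIP partners (-0.38) and other immediate-early genes (-0.36) lie mostly below 0, the heat-shock genes (0.80) above it, and the MAP kinase, SRF and phosphatase lists on both sides.

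Immediate-early transcripts can be induced by handling. Heat-shock genes are described beside them, but their levels cannot tell handling apart from the hairpin. Of 9, 8 were higher in knockdown cells, 0 were lower and 1 did not pass, with a median log2 fold change of 0.80. The shares over all tested genes were 26.8% higher and 26.0% lower. Their summed level was 4345 to 4726 CPM in shSIRT1 cells and 2507 to 2642 CPM in shfirefly cells. Most of it came from HSPA8 (1947 CPM in shSIRT1 and 1011 CPM in shfirefly cells) and HSP90AA1 (1451 and 833 CPM). The sum therefore mainly describes HSPA8 and HSP90AA1. HSPA1A was at 30.3 CPM in shSIRT1 and 14.8 CPM in shfirefly cells. BAG3 was the gene that did not pass (0.04 ± 0.05). HSPH1, a nucleotide exchange factor of HSP70, averaged 223 ± 9.13 CPM in shSIRT1 cells and 76.1 ± 7.07 CPM in shfirefly cells (1.55 ± 0.06). HSPA1B (1.12) and HSPA1A (1.04) were the next largest rises, though reads of these near-identical genes may be split between them. The heat-shock genes thus differed between the groups in the opposite direction to most AP-1 genes, and their part in the AP-1 result was not tested.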

How the data were processed

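Per the labels' protocols, total RNA was made into libraries with the TruSeq Stranded mRNA kit. The submitters' processing notes name Trimmomatic, STAR, DESeq2 and GRCh38; versions, the counting tool, its strand setting and the annotation are not stated in any source used here. The authors deposited raw counts per gene for each library and a table of their comparison with log2 fold changes, p-values and adjusted p-values; the same deposited table holds normalized counts, test statistics and dispersions, score values the authors computed, per the file headers, that were not used here. The design text calls the 3 cultures of each group biological replicates.

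Genes were filtered with filterByExpr, scaled by TMM and tested with the robust quasi-likelihood F test of edgeR 4.0.16 in R 4.3.3 on group alone, with Benjamini-Hochberg adjustment over 16591 genes and a threshold of 0.05. CPM are TMM-scaled; standard errors were derived from the size of the log2 fold change and its F statistic. The script was tested on simulated data. Exon lengths and coordinates come from GENCODE 29 (GRCh38), promoters from RefSeq. The 10 genes and all lists were chosen with earlier results of these data known. From each list up to 3 called genes in each direction were named, by absolute log2 fold change at a mean of at least 1 CPM. A gene that this rule names is not reported here. Exact intervals are at 95% and cover counting error only. Alternatives were DESeq2 1.42.0, other scalings and filters, a replicate block and libraries left out.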

Additional observations from a re-analysis of the deposited data

How the results depend on the processing

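DUSP1, JUNB, JUN, FOSL2 and JUND were lower and past the threshold under each alternative, with log2 fold changes of -0.88 to -0.71, -0.79 to -0.52, -0.52 to -0.35, -0.49 to -0.32 and -0.48 to -0.21. FOS lost its call with DESeq2 (-0.69, adjusted p = 0.099), against a fold of 1.2 (-0.69, adjusted p = 0.079) and on library totals alone (-0.57), and ranged between -0.80 and -0.55 with 1 library left out. FOSL1 lost it against a fold of 1.2 (-0.13, adjusted p = 1.0) and on library totals alone (-0.01), was 0.03 with the GC and length offset, and ranged between -0.16 and -0.10 with 1 library left out. IER2 was 0.00 with that offset and -0.19 with upper-quartile factors, and ranged between -0.19 and -0.10 with 1 library left out. EGR1 was -0.07 without both libraries numbered 3, an alternative chosen after seeing the data, and ranged between -0.17 and 0.31 with 1 library left out; FOSB ranged between -0.19 and 0.43 and had no value under a filter of 1 CPM. The number of the 10 genes called lower was 5 on library totals alone or against a fold of 1.2, 6 with the GC offset or DESeq2, 8 with upper-quartile factors, and 6 to 8 with 1 library left out; 0 were higher throughout. Library totals alone gave 6225 higher and 3021 lower genes, against 4449 and 4311, and moved the median of all genes by 0.13 on the log2 scale. Against a fold of 1.2 there were 2006 higher and 2201 lower genes, and 12 in place of 29 higher genes in the lists. Shares of raw counts in place of shares per kilobase gave FOSL1 36.8% of the Fos family in shSIRT1 and 31.9% in shfirefly cells, FOSL2 63.0% in shSIRT1 and 67.8% in shfirefly cells, FOS 0.193% in shfirefly cells, and FOSB 0.0814% in shSIRT1 and 0.0564% in shfirefly cells. In the Jun family they gave JUN 79.2% in shSIRT1 and 78.8% in shfirefly cells, JUNB 5.07% in shSIRT1 and 5.92% in shfirefly cells, and JUND 15.7% in shSIRT1 and 15.2% in shfirefly cells, each group difference having the same sign as per kilobase. These shifts come from the genes' lengths. The cause of the other changes was not tested. Deviations of same-numbered libraries from their group means correlated at 0.0283 and -0.0072 for replicates 1 and 2. For the libraries numbered 3 the correlation was 0.22, the highest of all pairs between the groups. The next highest was 0.179, for shSIRT1 replicate 1 with shfirefly replicate 2. Whether the libraries numbered 3 share a batch was not tested. A replicate block gave 4711 higher and 4465 lower genes, with 7 of the 10 lower. Counts limit FOS, FOSB and EGR1, with 9 to 48 in a library.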
